A study of Drosophila melanogaster with 4 samples.

Results

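The genes described here store, build, release and carry fat: the lipases bmm and Hsl, the droplet coat proteins Lsd-1 and Lsd-2, the fatty acid enzymes FASN1, ACC and Desat1, the triglyceride enzymes mdy and Lpin, and the lipoprotein apolpp. They were taken by symbol through the gene IDs of the deposited table, and 9 of the 10 listed genes were found among its 15682 genes. The ID that the gene name table gives for FASN1 has no row there, so FASN1 was not analysed here. All 9 genes found passed the filter on low values, a mean of at least 10 counts, as did 9049 genes in all.

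The levels come from poly(A) RNA of Drosophila melanogaster heads, in 2 control libraries of w1118 flies without MJDtr-78Q and 2 libraries of flies expressing MJDtr-78Q. The transgene product is a truncated human ataxin-3 (MJD) with an expanded polyglutamine tract, used as a fly model of Machado-Joseph disease. The sources used here do not give its driver, the age and sex of the flies or the number of heads per library, nor whether the libraries came from separate flies. A p-value therefore measures only the spread between these libraries, which may be technical. The question addressed is how head transcript levels compare between flies with and without the polyglutamine protein.

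In flies most fat is held as triglyceride in lipid droplets of the fat body, a tissue that works as liver and adipose tissue together and of which the head holds a part. Acetyl-CoA carboxylase and fatty acid synthase make fatty acids, desaturases put double bonds into them, and lipin and diacylglycerol acyltransferase carry out the last steps to triglyceride. Perilipins coat the droplet and control the access of lipases, and lipophorin carries lipids through the hemolymph to other organs.

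The deposited values are log2(count + 1). Back-transformed they summed to 7147867 and 7147717 counts in the control libraries, but to 3111583 and 3111393 in the MJDtr-78Q libraries, totals that had been made nearly equal within each group. In the deposited values the median tested gene differed by -1.23 between MJDtr-78Q and control libraries. Levels and differences below are therefore log2 values after quantile normalization of the 4 libraries together, which left a median difference of -0.02. The 2 MJDtr-78Q libraries stood further apart (Pearson's r = 0.910 across genes) than the 2 controls (r = 0.9745), and MJDtr-78Q library 2 lay closer to both controls than to its own replicate. The eye colour gene w, mutated in the w1118 strain, stood at 6.07 and 6.24 in the controls and 6.55 and 6.92 with MJDtr-78Q (difference 0.58, SE 0.26; limma adjusted p = 0.948). No transgene level was analysed here to check the group labels.

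For 7 of the 9 lipid genes the levels of MJDtr-78Q and control heads overlapped between libraries. Desat1 and Lpin, a fatty acid desaturase and a phosphatidate phosphatase, were lower in both MJDtr-78Q libraries than in both controls, at 0.656 and 0.710 times the control level. The triglyceride lipase bmm, the acyltransferase mdy and the lipoprotein apolpp differed by -0.07, 0.04 and -0.10 on the log2 scale, and relative to all tested genes bmm and apolpp turned to above 0 with median centring or upper-quartile scaling. In whole heads fewer fat body cells and less RNA per cell cannot be told apart. None of the 9 genes passed limma's test at an adjusted p of 0.05, where 0% of all tested genes passed, and 0 of the 9 had an unadjusted p under 0.05, against 5.88% of all tested genes (532 of 9049). With the deposited scaling all 9 passed, as did 74.7% of all genes, whose median difference is then -1.24. With the replicate number as a block 0 of the 9 passed (4.28% of all genes), and with the block and the length correction described below 1 did, Lpin (limma adjusted p = 0.031; 7.6% of all genes). Differences were below 0 for 7 of the 9 genes (53.4% of all tested genes) and had a median of -0.12, against -0.02 over all tested genes. Groups did not overlap for 2 of the 9, both lower, where 15.5% of all tested genes were lower and 14% higher in this way.

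**Figure D1:**
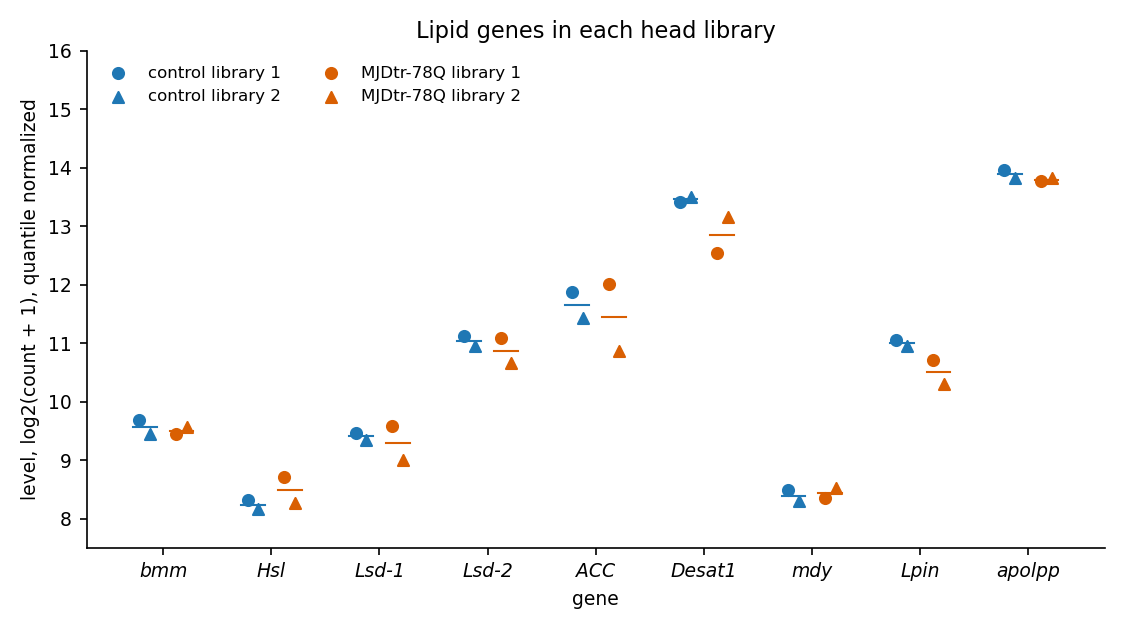
Level of each lipid gene in the 4 head libraries, as log2(count + 1) after quantile normalization. Points are single libraries (circles library 1, triangles library 2), and lines are group means of n = 2; Desat1 and Lpin are the genes whose MJDtr-78Q points both lie below both control points.

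The lipase gene bmm (FBgn0036449; 3L, 14769595 to 14779512, coordinates as deposited, with the build not given in the sources used here) encodes brummer, the fly relative of mammalian adipose triglyceride lipase. It was at 9.69 and 9.45 in the controls and 9.44 and 9.56 with MJDtr-78Q. The groups overlapped, and the difference of -0.07 (SE 0.24) had a 95% interval of -0.68 to 0.55 (limma adjusted p = 1). A 2-fold change in either direction lies outside that interval. Hormone-sensitive lipase, encoded by Hsl (FBgn0034491; 2R, 16145156 to 16149241), was the member with the highest difference. Its level was 8.31 and 8.16 in the controls and 8.71 and 8.26 with MJDtr-78Q. MJDtr-78Q library 1 alone stood above both controls, and the difference was 0.25 (SE 0.26) with an interval of -0.43 to 0.93 (limma adjusted p = 1).

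Lsd-1 (FBgn0039114; 3R, 19589578 to 19592388) encodes perilipin 1, which sits on droplets and takes part in hormone-stimulated lipolysis. It was at 9.47 and 9.35 in the controls and 9.58 and 8.999 with MJDtr-78Q, so that the MJDtr-78Q libraries enclosed the controls. Its difference was -0.12 (SE 0.29), with an interval of -0.87 to 0.64. By a later Ensembl annotation 7.35% of its exonic bases also lie in CG10214 on the opposite strand, and whether counting used strand is not given in the sources used here. Lsd-2 (FBgn0030608; X, 14965488 to 14970236) encodes perilipin 2, which protects stored fat from lipases. It was at 11.13 and 10.95 in the controls and 11.08 and 10.66 with MJDtr-78Q. MJDtr-78Q library 1 fell between the controls and library 2 below them, with a difference of -0.17 (SE 0.26) and an interval of -0.85 to 0.51. Neither perilipin gene passed the test (limma adjusted p = 1 for each). Both had their lower MJDtr-78Q value in library 2, but with the length correction described below Lsd-1 was at 9.83 in library 1 and 9.07 in library 2, and Lsd-2 at 10.28 and 10.49.

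ACC (FBgn0033246; 2R, 3861619 to 3874729) encodes acetyl-CoA carboxylase, which makes the malonyl-CoA from which fatty acids are built. It was at 11.88 and 11.43 in the controls and 12.01 and 10.86 with MJDtr-78Q. The MJDtr-78Q libraries were respectively the highest and the lowest of the 4, and their gap of 1.15 was wider than that of any other member. The difference of -0.22 (SE 0.45) had an interval of -1.39 to 0.95, so a 2-fold fall was not excluded (limma adjusted p = 1).

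Desat1 (FBgn0086687; 3R, 8265321 to 8273338) encodes the delta-9 desaturase that makes monounsaturated fatty acids for membranes, stored fat and pheromones. It was at 13.42 and 13.50 in the controls and 12.54 and 13.16 with MJDtr-78Q. The controls lay within 0.08 of each other, and both MJDtr-78Q libraries were lower. The difference of -0.61 (SE 0.29) was the lowest among the members, and 6.11% of all tested genes had a lower one. This was not a call (limma adjusted p = 0.977), and the interval ran from -1.35 to 0.13.

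Of the triglyceride enzymes, Lpin (FBgn0263593; 2R, 4024500 to 4044128) encodes lipin, which turns phosphatidate into diacylglycerol. It was at 11.06 and 10.95 in the controls and 10.71 and 10.30 with MJDtr-78Q. The MJDtr-78Q libraries were both below the controls, but their own gap of 0.41 was close in size to the difference of -0.49 (SE 0.26). The interval ran from -1.16 to 0.17 and the limma adjusted p = 1. In the Ensembl annotation 10.9% of its exonic bases are shared with kermit on the same strand, so its count may be affected by how shared reads were treated. The gene mdy (FBgn0004797; 2L, 16816659 to 16826964) encodes midway, the diacylglycerol acyltransferase of the final step. It was at 8.49 and 8.30 in the controls and 8.36 and 8.52 with MJDtr-78Q. The groups overlapped, with a difference of 0.04 (SE 0.23) and an interval of -0.55 to 0.64.

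The lipoprotein gene apolpp (FBgn0087002; 4, 1085537 to 1096830) encodes the apolipophorins, the protein scaffold of the main hemolymph lipoprotein. It was at 13.96 and 13.82 in the controls and 13.77 and 13.82 with MJDtr-78Q, the narrowest MJDtr-78Q gap among the members, 0.06. The difference was -0.10 (SE 0.21), with an interval of -0.63 to 0.44 (limma adjusted p = 1). Of its exonic bases 5.75% lie in an annotated HB transposable element and 0.816% in Zyx, both on the opposite strand.

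**Figure D2:**
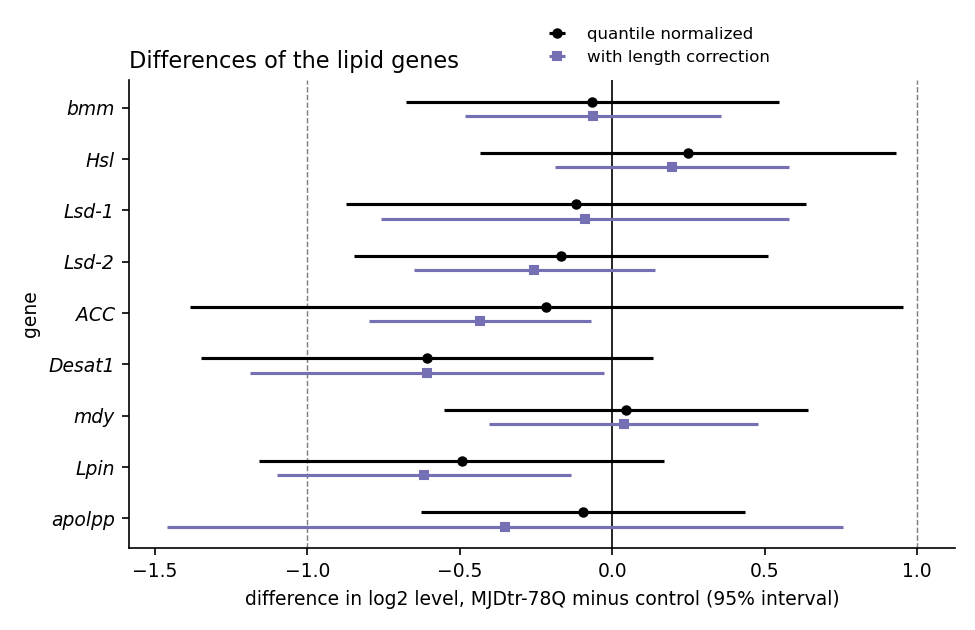
Difference in log2 level, MJDtr-78Q minus control, for the 9 lipid genes, with 95% intervals from limma (2 libraries per group). Black circles are quantile-normalized values and purple squares the values after a further correction for transcript length. Dashed lines mark 2-fold changes. With the correction the interval of ACC narrows from -1.39 to 0.95 to -0.80 to -0.07 (limma adjusted p = 0.318), and that of apolpp widens to -1.46 to 0.76. Corrected intervals of Desat1 and Lpin also lie below 0, but no member passed the test.

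Per kilobase of exon (lengths from the Ensembl annotation), the members kept a wide range of levels. Mean control levels on the log2 scale of counts per kilobase ran from 12.14 for Desat1 and 10.34 for apolpp through 8.84 for Lsd-2 to 6.96 for mdy and 6.29 for Hsl. Between these lay Lpin at 8.54, ACC at 8.47, Lsd-1 at 8.44 and bmm at 8.28. From Lpin to bmm each neighbouring pair overlapped in the control libraries, whereas each other step of the order was wider than the spread of the controls. In MJDtr-78Q heads Lpin went from the fourth to the seventh place, at 8.05, below Lsd-1 (8.32), ACC (8.26) and bmm (8.22), although its libraries overlapped those of all 3. Desat1, apolpp and Lsd-2 remained the top of the order and mdy and Hsl its end.

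Transcript length moved with the libraries. Among tested genes with at least 5000 exonic bases MJDtr-78Q library 1 exceeded library 2 by a median of 0.90, and among those under 1000 bases it lay below it, with a median of -0.84. Control libraries differed in the same sense, by 0.31 and -0.39. ACC has 9067 exonic bases, and its MJDtr-78Q gap of 1.15 shrank to 0.05 when the trend on length was removed from each library. Its levels were then 10.85 and 10.80 in the controls and 10.37 and 10.42 with MJDtr-78Q, both lower, with a difference of -0.43 (SE 0.15; limma adjusted p = 0.318). The opposite held for apolpp, the longest member with 11766 bases: its MJDtr-78Q gap widened from 0.06 to 1.44 (11.81 and 13.25) and its difference was -0.35 (SE 0.45).

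After the length correction ACC, Desat1, Lpin and Lsd-2 were lower in both MJDtr-78Q libraries than in both controls, and Hsl was higher in both. That makes 4 members lower and 1 higher, where 22.1% of the 8641 genes with a length were lower and 19.5% higher in this way. Lpin was then at 10.41 and 10.60 in the controls and 9.69 and 10.08 with MJDtr-78Q, a difference of -0.62 (SE 0.20; limma adjusted p = 0.277). Desat1 differed by -0.61 (SE 0.24; limma adjusted p = 0.384), almost as without the correction. Lsd-2, at 10.61 and 10.68 against 10.28 and 10.49, differed by -0.26 (SE 0.16), and Hsl, at 7.92 and 7.95 against 8.12 and 8.14, by 0.20 (SE 0.16). No member passed the test with this correction, in which 6 genes passed in all. The unadjusted limma p was 0.027 for ACC, 0.043 for Desat1 and 0.020 for Lpin, and above 0.05 for every other member. How many of all genes had such a p with the correction is not given here. The part of RNA quality or library preparation in the length trend was not tested.

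Several of the small differences rested on single libraries, as the plot of differences with each library left out shows. Relative to the median of all tested genes, ACC was at -0.78 without MJDtr-78Q library 1 and at 0.40 without MJDtr-78Q library 2. Lsd-1 went from -0.40 to 0.21 and Lsd-2 from -0.37 to 0.08 with the same libraries left out. Hsl was above 0 in each case, from 0.04 without MJDtr-78Q library 1 to 0.50 without library 2. Desat1 and Lpin were below 0 with any 1 library left out. For both genes the MJDtr-78Q libraries already lay below both controls, so this sign could hardly turn and adds no support. For Desat1 the difference was -0.91 when MJDtr-78Q library 2 was left out and -0.29 when library 1 was, and for Lpin it was -0.25 and -0.70 in the same order.

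**Figure D3:**
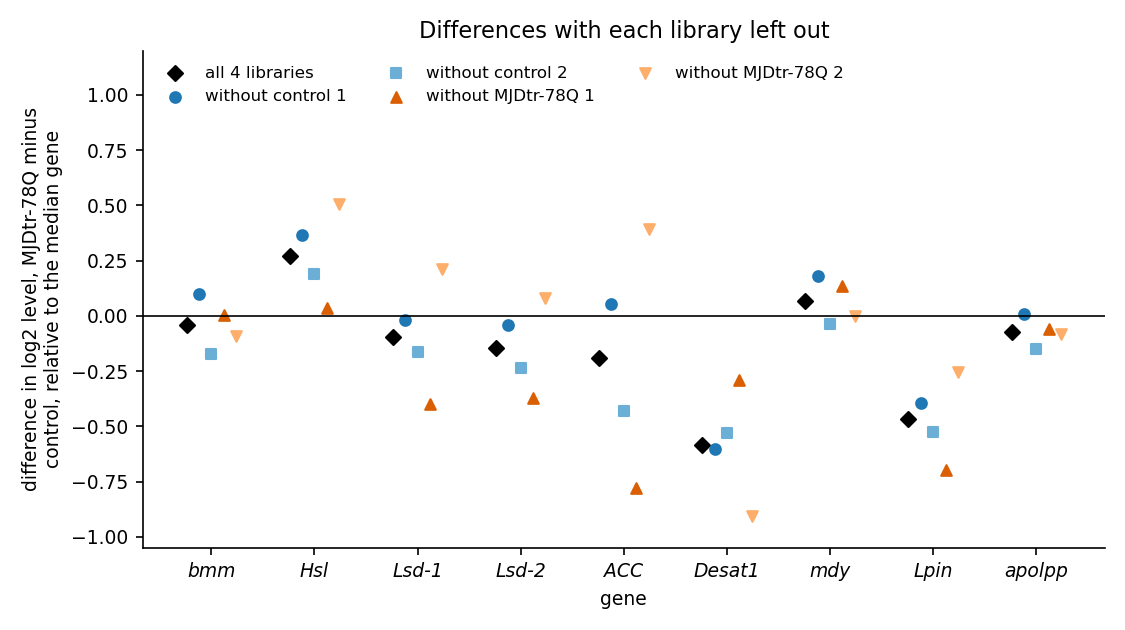
Difference in log2 level, MJDtr-78Q minus control, relative to the median of all tested genes, with all 4 libraries and with each library left out. Each point is 1 gene under 1 choice of libraries. ACC runs from -0.78 to 0.40. All 5 points of Desat1 and of Lpin lie below 0, a sign nearly fixed beforehand because their groups do not overlap.

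The other genes of fat metabolism gave 0 calls among 67 tested (limma adjusted p), with a median difference of -0.02, 31 above 0 and 36 below 0. Unadjusted p was under 0.05 for 4 of them, 3 higher and 1 lower (5.88% of all tested genes), and groups did not overlap for 11 higher and 12 lower (14% and 15.5% of all tested genes). The medians of the 7 lists ran from -0.17 to 0.09. With 1 library left out, medians relative to all tested genes kept their sign only for the droplet and glycerolipid lists. Without MJDtr-78Q library 2 the median was -0.39 for lipolysis, -0.051 for transport and 0.27 for regulators, and without MJDtr-78Q library 1 it was 0.17, 0.27 and -0.19 in the same order. The 8 other droplet genes had a median of -0.17, with 3 above 0. Among them Pcyt1, which encodes an enzyme of phosphatidylcholine synthesis that binds growing droplets, was at 9.73 and 9.87 in the controls and 9.36 and 9.49 with MJDtr-78Q, a difference of -0.38 (SE 0.23). Its relative Pcyt2 differed by -0.56 (SE 0.38) and the droplet dehydrogenase gene Ldsdh1 by -0.31 (SE 0.27). Relative to all tested genes Pcyt2 was at -0.13 without MJDtr-78Q library 1 and -0.94 without library 2, and Ldsdh1 at -0.12 and -0.46.

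Lipase genes had differences of both signs. The gene dob, a close relative of bmm, was at 6.94 and 7.05 in the controls and 5.88 and 6.29 with MJDtr-78Q, both lower, a difference of -0.91 (SE 0.26; limma adjusted p = 0.667). CG5966, a lipase gene, was at 8.04 and 7.34 in the controls and 8.69 and 9.22 with MJDtr-78Q, both higher, a difference of 1.26 (SE 0.35; limma adjusted p = 0.660). PAPLA1, a phospholipase gene, differed by 0.38 (SE 0.30), and relative to all tested genes by 0.096 without MJDtr-78Q library 1 and 0.72 without library 2. With these the 6 tested genes of lipolysis had a median of -0.04, and -0.38 relative to all genes when no filter was applied. The hormone gene Akh and the lipase genes mag, Lip1 and Lip3 were below the filter.

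Of the other genes of fatty acid synthesis, 6 were above 0 and 7 below 0, with a median of -0.08. Groups did not overlap for 3 higher genes, FASN2, bond and sit, and for 3 lower ones, SCAP, S1P and SREBP, of 13 tested (14% and 15.5% of all tested genes). Of these bond, sit and SREBP were named after their values were seen, with differences of 0.34 (SE 0.27), 0.47 (SE 0.34) and -0.31 (SE 0.22). SCAP, which escorts the transcription factor SREBP to its cleavage, was at 9.17 and 8.99 in the controls and 8.59 and 8.36 with MJDtr-78Q, a difference of -0.61 (SE 0.24; limma adjusted p = 0.843). The protease gene S1P, which makes the first cut in SREBP, differed by -0.39 (SE 0.25), and relative to all tested genes by -0.55 without MJDtr-78Q library 1 and -0.18 without library 2. FASN2, a fatty acid synthase gene of oenocytes, was at 7.10 and 5.07 in the controls and 8.62 and 7.24 with MJDtr-78Q. Its difference of 1.85 (SE 0.81; limma adjusted p = 0.937) was smaller than the gap of the controls, and relative to all tested genes it was 2.91 with control library 1 left out and 0.86 with control library 2 left out.

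The 10 other genes of glycerolipid synthesis had a median of 0.07. Groups did not overlap for 4 higher and 2 lower of them (14% and 15.5% of all tested genes), and with a filter at a mean of 50 counts their median relative to all genes was 0.00087. CG1941, a relative of the acyltransferase gene Dgat2, was at 4.65 and 4.08 in the controls and 5.34 and 5.27 with MJDtr-78Q, a difference of 0.94 (SE 0.36; limma adjusted p = 0.840). Agpat4 and Dgat2, which encode acyltransferases, differed by 0.73 (SE 0.29) and 0.87 (SE 0.48), with both MJDtr-78Q libraries higher. Relative to all tested genes Dgat2 was at 1.35 without MJDtr-78Q library 1 and 0.46 without library 2, and Agpat4 at 1.09 with control library 1 left out and 0.44 with control library 2 left out. Dgat2 and CG1941 are related in sequence and low, so reads split between them are uncertain.

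For lipid transport the 6 tested genes had a median of 0.09, and for 0 of them were the groups apart (29.5% of all tested genes in both directions). The lipophorin receptor gene LpR2 was at 9.32 and 8.91 in the controls and 10.10 and 8.90 with MJDtr-78Q, a difference of 0.39 (SE 0.46). The lipid transfer particle gene Apoltp and the lipocalin gene NLaz differed by 0.10 (SE 0.23) and 0.13 (SE 0.30). With length correction Apoltp was at -0.14 relative to all tested genes, against 0.12 without it. The 13 genes of fatty acid oxidation, the route by which released fat is burnt, had a median of 0.01 and ran from -0.31 to 0.26. Acox57D-d, a peroxisomal oxidase gene, differed by 0.26 (SE 0.24) and Arc42, an acyl-CoA dehydrogenase gene, by -0.27 (SE 0.28). Of 11 regulators of fat stores 9 were below 0 (53.4% of all tested genes), and their median relative to all tested genes went from -0.047 to 0.27 without MJDtr-78Q library 2. The sugar-induced transcription factor gene sug was at 6.17 and 6.35 in the controls and 6.96 and 7.54 with MJDtr-78Q, a difference of 0.99 (SE 0.29; limma adjusted p = 0.689). The nuclear receptor gene Hnf4 differed by -0.24 (SE 0.22) and foxo, a target of insulin signalling, by -0.10 (SE 0.22), which turned to above 0 relative to all tested genes with upper-quartile scaling. Among the related genes named with a difference, LpR2, NLaz, Apoltp and Arc42 changed sign when 1 library was left out.

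**Figure D4:**
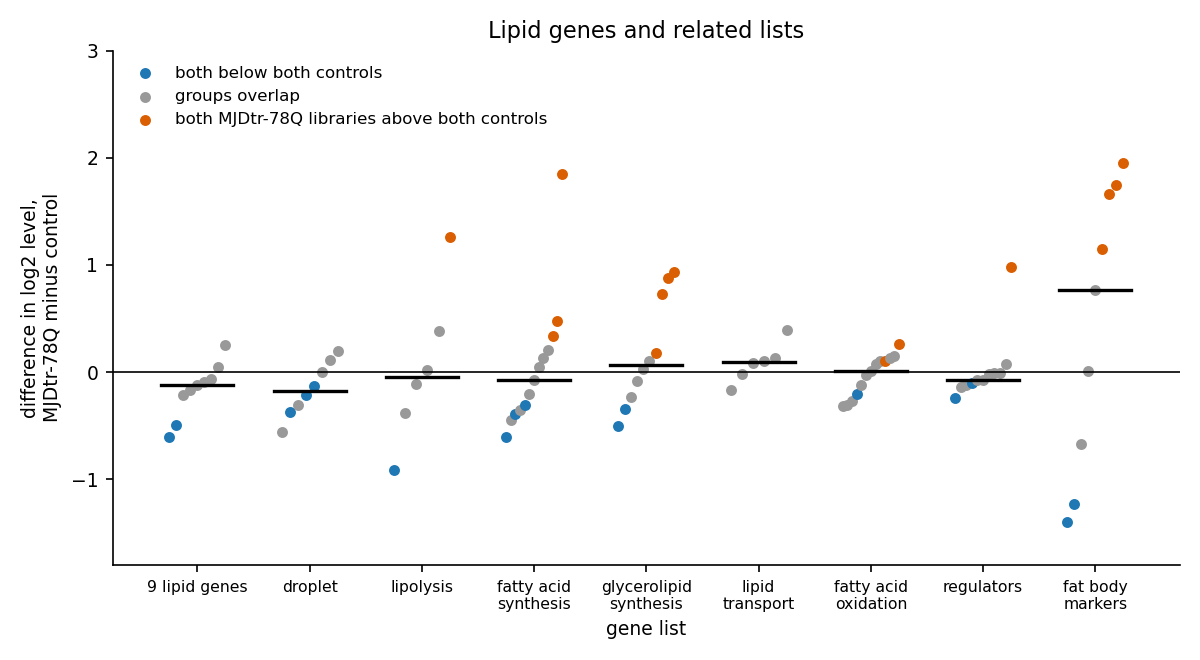
Difference in log2 level, MJDtr-78Q minus control, of every tested gene of the lipid genes, 7 related lists and the fat body markers; each point is 1 gene and each bar the list's median. Medians of the lipid lists lie between -0.17 and 0.09, and single genes such as CG5966 (1.26) and dob (-0.91) lie far from them.

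The tested genes with the most similar pattern to ACC over the 4 libraries, by Euclidean distance between levels centred on each gene's mean, were Ae2 (distance 0.05), Rfx (0.08) and Pp2C1 (0.08). Nearest to Desat1 in the same sense were Targ2 (0.05), FBgn0036169 (0.08) and CG2736 (0.08). ACC and Desat1 were chosen for this as the members with the widest range, 1.15 and 0.96. With 4 libraries such likeness is a description only.

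Fat body markers had differences of both signs. The larval serum and fat body protein genes Lsp1gamma, Fbp1, Fbp2 and Lsp1alpha were above both controls in both MJDtr-78Q libraries, with differences of 1.66 (SE 0.41), 1.75 (SE 0.62), 1.96 (SE 0.63) and 1.15 (SE 0.44). These genes were low, in the controls at 4.65 and 3.86, 5.06 and 3.53, 5.21 and 3.53, and 4.39 and 3.69 in the same order. For Fbp1 and Fbp2 the controls lay nearly as far apart as the groups. The circadian and feeding gene to (takeout) and Obp99b, an odorant-binding gene of the fat body, were lower in both, with differences of -1.23 (SE 0.35) and -1.40 (SE 0.28). All 9 markers were tested, with 0 calls (limma adjusted p) and 6 at an unadjusted p under 0.05, 4 higher and 2 lower, where 5.88% of all tested genes had such a p. These 6 were also the markers whose groups did not overlap (14% higher and 15.5% lower among all tested genes). The summed level of all 9 was 12.65 and 12.22 in the controls and 13.17 and 12.26 with MJDtr-78Q (log2), so the groups overlapped. This sum mostly follows the highest of them, the larval serum gene Lsp2, at 11.85 and 11.11 in the controls and 12.96 and 11.53 with MJDtr-78Q. Lsp2 differed by 0.76 (SE 0.56), Lsp1beta by 0.01 (SE 0.23) and fit by -0.67 (SE 0.44), each with overlapping groups. The yolk protein genes Yp1, Yp2 and Yp3, which the female fat body expresses, summed to 16.92 and 16.87 in the controls and 16.56 and 16.99 with MJDtr-78Q. Quantile normalization gives the highest genes values fixed by their rank. Yp1 stood at 15.54 in control library 1 and in both MJDtr-78Q libraries. The yolk protein sums therefore do not show the size of a change.

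Summed levels of other head cells shifted by -0.93 (photoreceptors), 0.69 (hemocytes), 0.59 (oenocytes), 0.57 (muscle), 0.18 (neurons) and 0.10 (glia), against 0.28 for the fat body markers (log2). The 11 photoreceptor genes summed to 16.97 and 17.00 in the controls and 16.09 and 16.01 with MJDtr-78Q, 10 of them with a difference below 0 (53.4% of all tested genes). The 6 muscle genes summed to 15.58 and 15.39 against 16.32 and 15.78, and the 8 hemocyte genes to 12.40 and 11.98 against 13.30 and 12.45, both sums higher in both MJDtr-78Q libraries. For hemocytes MJDtr-78Q library 2 was only just above control library 1. The hemocyte sum mostly follows its highest genes, Col4a1 and vkg, which differed by 0.85 (SE 0.43) and 0.84 (SE 0.40). Of the 8 hemocyte genes 4 were higher in both MJDtr-78Q libraries (14% of all tested genes). The groups overlapped for Hml, NimC1, Pxn and srp, and srp had a difference of -0.10 (SE 0.24). Among muscle genes Mhc overlapped, at 14.06 and 13.71 against 15.40 and 13.64. The other 5 were higher in both MJDtr-78Q libraries, as were 14% of all tested genes. None of the marker sums was corrected for length. Of 6 oenocyte markers 2 were tested, bond and FASN2, which are also in the synthesis list and summed to 9.68 and 9.46 against 10.12 and 10.20. Of these bond was the higher in every library, at 9.43 and 9.39 against 9.50 and 9.999. FASN2 had the larger difference, 1.85 (SE 0.81) against 0.34 (SE 0.27) for bond. The shift of the sum is thus not that of bond alone. The oenocyte markers Cyp4g1 and eloF were below the filter, and Fad2 was at 0 in every library. The sum is therefore no measure of oenocytes as a whole. The sums of 6 neuron genes (13.56 and 13.18 against 13.999 and 13.10) and 5 glia genes (13.75 and 13.53 against 13.97 and 13.51) overlapped. The glia sum mostly follows its highest gene, Gs2. Of the glia genes 3 had differences above 0 and 2 below 0, repo at -0.35 (SE 0.27) and alrm at -0.26 (SE 0.31). The part of these marker shifts in the levels of Desat1, Lpin and the other lipid genes was not tested.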

How the data were processed

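Poly(A) RNA of 4 head libraries was made into stranded libraries, per the labels' protocols. HTSeq 0.6.1, TopHat2 2.0.10, Bowtie, CASAVA 1.8.2 and cutadapt 1.2.1 appear in the submitters' processing notes, in no stated role; the build is not given in the sources used here. The deposited log2 values are log2(count + 1) for 15682 genes, as read from the values, and had been made equal within groups but not between them, so whole reads and counting error per gene are unknown. Symbols matched 15002 IDs; 680 had none.

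The 4 libraries were quantile normalized together, genes with a back-transformed mean of at least 10 kept (9049), and groups compared with limma 3.58.1 in R 4.3.3 (intensity trend, two-sided, Benjamini-Hochberg over all tested genes, threshold 0.05). A pseudocount of 1 understates changes of low genes. Length correction subtracted from each library its loess fit (span 0.5) against log2 exonic length, known for 95.5% of tested genes. The steps were also run on simulated data. Those had no length trend, unlike these libraries, so they do not show how well changes are found here.

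Members and gene lists were chosen with earlier results of these data known. Named besides the members were the 3 genes of lowest p in each related list (1 is not reported here), whole marker lists, w, and the nearest genes by pattern to 2 members; bond, sit and SREBP were added after their values were seen. Listed symbols were replaced by current ones where these differed.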

Additional observations from a re-analysis of the deposited data

How the results depend on the processing

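With no scaling between groups, as deposited, 6794 genes passed, all 9 lipid genes among them, with a median of -1.24 over all genes; relative to that shift bmm was at 0.019 and apolpp at 0.020. With the replicate number as a block 387 genes passed, with length correction 6, and with both 657. Under the block 0 lipid genes passed, and with block and length correction together 1 did (Lpin, limma adjusted p = 0.031). No label ties equal replicate numbers to a shared batch; deviations of equally numbered libraries correlated across genes (r = 0.536). The members' median relative to all tested genes was -0.09, moved to -0.22 with length correction, with or without the block, and ran from -0.29 to 0.0096 with a library left out, where 0 to 2 genes and 0 members passed. Relative to all tested genes bmm and apolpp turned above 0 with median centring (0.016 and 0.017) and upper-quartile scaling (0.026 and 0.028). With a library left out bmm ran from -0.17 to 0.098, apolpp from -0.15 to 0.0096, mdy from -0.036 to 0.18, ACC from -0.78 to 0.40, Lsd-1 from -0.40 to 0.21 and Lsd-2 from -0.37 to 0.081. The cause of these sign changes was not tested. Of the medians of the 7 related lists, 107 recomputed values stayed within the spread between replicates and 5 moved beyond it: lipolysis with no filter (-0.38) and, without MJDtr-78Q library 2, at -0.39, glycerolipid synthesis with a filter at 50 (0.00087), and transport (-0.051) and regulators (0.27) without MJDtr-78Q library 2. Desat1, Lpin and Hsl kept their sign relative to all tested genes under every alternative run (including a pseudocount of 0.5 or 5, a filter at 50 or none, no intensity trend and a robust variance prior). For Desat1 and Lpin, whose groups did not overlap, leaving out a library could hardly change it. With 2 libraries a group, intervals of ACC, Desat1 and Lpin reach past a 2-fold fall without length correction. With it the interval of ACC (-0.80 to -0.07) does not, those of Desat1 and Lpin still do, and that of apolpp (-1.46 to 0.76) then does.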
